A study of Homo sapiens with 9 samples.

Results

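The TMED genes encode the p24 proteins, a family of cargo receptors that shuttle between the endoplasmic reticulum and the Golgi. The 9 genes described here (TMED1, TMED2, TMED3, TMED4, TMED5, TMED7, TMED8, TMED9 and TMED10) were chosen by name among the 15983 genes of a count table from KGN cells treated with insulin. The family was taken up because TMED7 had the second smallest p-value of 12665 tested genes when 0.5 µg/ml insulin was compared with solvent. It was not called there (adjusted p = 0.765, edgeR quasi-likelihood test with Benjamini-Hochberg adjustment), and its values in that comparison are given as a description only. KGN is a human ovarian granulosa cell tumour line, labelled wild type and used as a model of granulosa cells. All cells were fasted for 12 h and then kept for 72 h with solvent (control, 3 libraries), 0.5 µg/ml insulin (the lower dose, 3 libraries) or 1 µg/ml insulin (the higher dose, 3 libraries). Every group is therefore the same tumour line after the same fast. The labels do not tell separate cultures from repeated libraries of 1 culture, so a p-value here speaks only of library-to-library spread, which can be technical. By its title, the study asked how these cells respond to high concentrations of insulin.

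Most p24 proteins are membrane proteins with a GOLD domain in the lumen, a coiled coil and a short cytosolic tail that binds the COPI and COPII vesicle coats. They assemble with one another into mixed complexes drawn from subfamilies named alpha (TMED4 and TMED9), beta (TMED2), gamma (TMED1, TMED3, TMED5 and TMED7) and delta (TMED10), and their best known cargo is proteins held in the membrane by a glycosylphosphatidylinositol (GPI) anchor. TMED8 carries a GOLD domain and the family name but is placed in none of these subfamilies. Secretory cells such as granulosa cells depend on this traffic for matrix proteins, receptors and peptide hormones.

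All 9 genes had counts in every library and passed the filter on low counts. Expression is given on 2 scales. CPM, which divides a gene's count by the library's TMM-scaled total over tested genes, compares one gene between libraries, and the authors' FPKM, which also divides by gene length, compares levels between genes. TMED6, a gamma member outside the 9, had 13 counts over all 9 libraries (between 0 and 5 in each) and was not tested. Library totals ran from 18965722 to 20446405 counts, and each member had at least 368 counts in every library. Of 16 granulosa markers 15 were tested, with FOXL2 at 26.2 ± 2.02 CPM and FSHR at 18.1 ± 2.43 CPM (SD, n = 9), but INHA was at 0.656 ± 0.266 CPM and AMHR2, with 34 counts in all, was not tested. Of the other lists 6 of 7 epithelial, 7 of 8 fibroblast and smooth muscle, 3 of 8 blood and immune, 2 of 5 endothelial and 0 of 3 theca markers were tested. Some of these had high levels, such as KRT18 at 1756 ± 82.8, CD68 at 58.1 ± 3.599, CD74 at 57.9 ± 7.78 and KDR at 18.3 ± 1.29 CPM (SD, n = 9), while EPCAM had 7 counts, PECAM1 53 and PTPRC 322 over all libraries. INHA, AMHR2, KRT18, CD68, CD74 and KDR were named after their values were seen. The summed levels of the granulosa, theca, fibroblast, epithelial, immune and endothelial markers overlapped between the groups in each of these 6 lists.

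RefSeq promoter sequences (GRCh38.p14) were at hand for 7 of the 9 genes, all but TMED4 and TMED9. The 120 bases just before the start that RefSeq annotates are printed for TMED7, from which the family was taken up, for TMED5, a gamma member whose libraries at either dose did not overlap control, and for TMED2 and TMED10, 2 of the most abundant members. Capitals mark the core ACGTGG, or CCACGT where it lies on the other strand, which is recognised by the secretory stress factors XBP1 and ATF6. The sequences run 5′ to 3′ along each gene.
TMED7: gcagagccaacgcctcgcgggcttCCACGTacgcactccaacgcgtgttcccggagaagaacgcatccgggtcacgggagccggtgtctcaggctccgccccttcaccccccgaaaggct
TMED5: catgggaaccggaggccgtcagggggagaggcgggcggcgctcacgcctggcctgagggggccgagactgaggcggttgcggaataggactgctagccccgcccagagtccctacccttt
TMED2: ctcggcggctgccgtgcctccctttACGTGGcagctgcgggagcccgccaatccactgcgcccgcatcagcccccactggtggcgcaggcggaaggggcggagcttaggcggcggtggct
TMED10: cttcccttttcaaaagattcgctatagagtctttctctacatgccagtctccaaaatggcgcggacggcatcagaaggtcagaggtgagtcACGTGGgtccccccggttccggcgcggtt
They lie at chr5:115626037-115626156 (minus strand) for TMED7, at chr1:93180414-93180533 (minus strand) for TMED5, at chr12:123584432-123584551 (plus strand) for TMED2 and at chr14:75176613-75176732 (minus strand) for TMED10. The RefSeq starts lie inside the GENCODE gene bounds given for the members: 6956 bases inside for TMED7, 315 for TMED5, 21 for TMED2 and 19 for TMED10. In the 250 bases before the RefSeq start, searched on both strands, the core ACGTGG was found in 3 of the 7 members (TMED2, TMED7 and TMED10) and in 13.8% of the tested genes that have a promoter in the table. It begins 95 bases before the start in TMED2 and 96 bases before it in TMED7, and in TMED10 it overlaps an E box, CACGTG, close to the start. The longer ER stress response element was found in 0 of 7 members and in 0.156% of tested genes. GTAAACA, the sequence bound by the insulin-inhibited FOXO factors, was found in 0 of 7 members and in 3.15% of tested genes. The GC box GGGCGG was found in 6 of 7, all but TMED10, and in 74.8% of tested genes. A match is a description of these letters, and no binding was measured.

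Per length, the family was led by TMED2, the beta member, and the alpha member TMED9. TMED2 was measured at 108 ± 5.63 FPKM, TMED9 at 93.5 ± 4.27 FPKM and TMED10, the delta member, at 76.8 ± 2.71 FPKM (SD, n = 9). TMED4, the other alpha gene, followed at 38.3 ± 0.815 FPKM. The gamma genes were lower, with TMED7 at 18.0 ± 2.03 FPKM, TMED5 at 14.0 ± 1.13 FPKM, TMED1 at 11.7 ± 1.22 FPKM and TMED3 at 8.79 ± 0.162 FPKM (SD, n = 9). TMED8 was the scarcest at 3.44 ± 0.196 FPKM. Each gene was above the next in this order in all 9 libraries, except that TMED5 was above TMED1 in 7 of 9. The order and the shares below rest on the lengths implied by the FPKM, which are the same in every library. They run from 1762 bases for TMED1 to 7990 for TMED8. For TMED3 the implied length is 6414 bases, against 19470 exonic bases in GENCODE. By mean CPM the order was TMED10, TMED2, TMED9, TMED4, TMED5, TMED7, TMED3, TMED8 and TMED1. The ranges over libraries overlapped for TMED2 and TMED9, for TMED7 and TMED5 and for TMED5 and TMED1. Summed by subfamily, alpha held 35.4 ± 1.30%, beta 28.997 ± 1.01%, delta 20.6 ± 0.400% and gamma 14.1 ± 0.635% of the family's FPKM (SD, n = 9).

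**Figure D1:**
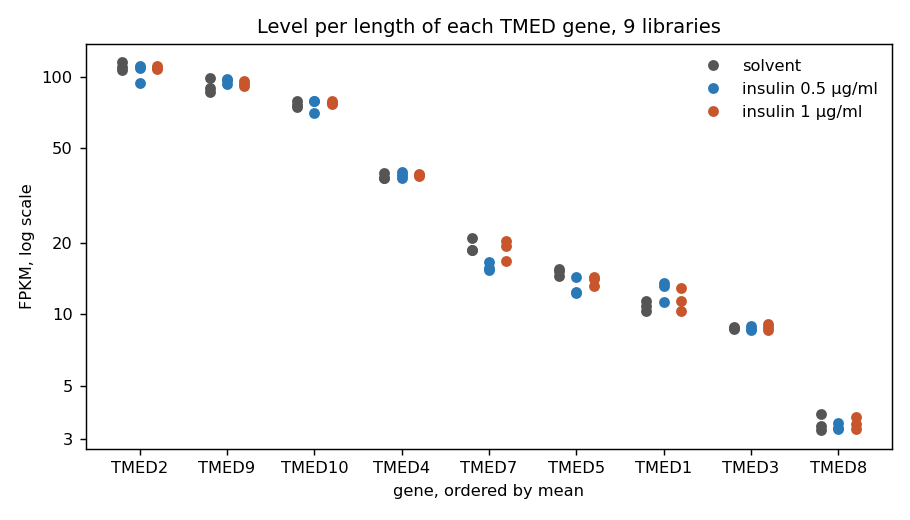
FPKM of each TMED gene on a log axis, with 1 point per library (3 solvent, 3 at 0.5 µg/ml, 3 at 1 µg/ml insulin) and genes ordered by their mean over 9 libraries. TMED2, TMED9 and TMED10 lie between 70.6 and 115 FPKM, the gamma genes between 8.59 and 20.9, and TMED8 below 4.

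The gamma member TMED7 stood lowest in the libraries of the lower dose. It helps Toll-like receptor TLR4 leave the endoplasmic reticulum, and it lies on chromosome 5 from 115613508 to 115632992 (hg38, GENCODE release 29, minus strand). Its levels in control were 73.3, 73.1 and 81.5 CPM. At the lower dose they were 62.1, 64.9 and 60.2 CPM, and at the higher dose 79.5, 75.4 and 65.5 CPM. All 3 libraries of the lower dose lay below every other library, and higher dose 3 came nearest to them. The log2 fold change at the lower dose was -0.28 ± 0.07 (SE), which is the value that led to the family being taken up. Between the doses it was 0.23 ± 0.07 (SE, higher against lower), a value that rests on the same lower dose libraries and is likewise only a description. At the higher dose against control it was -0.05 ± 0.07 (SE), with overlapping groups and a 95% interval of 0.878- to 1.06-fold (edgeR quasi-likelihood, adjusted p = 1.00). Its sign turned without control 3 (0.0043) and without higher dose 3 (0.03). The control libraries in this value were also used in the comparison by which TMED7 was chosen, so its p-value is not free of that choice. The TMED7 counts are uncertain where genes overlap: 24.01% of its exonic bases are shared with the read-through gene TMED7-TICAM2 and 5.78% with the antisense gene AC010226.1, and neither has a row in the count table.

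TMED7 was also taken as a share of the family, where library depth cancels. The share uses the same TMED7 values that led to the family being taken up. That the lower dose libraries stood lowest in it is therefore a description and no separate result. TMED7 made up 4.95, 5.07 and 5.56% of the family's summed FPKM in control, 4.47, 4.39 and 4.04% at the lower dose and 5.42, 5.09 and 4.53% at the higher dose. Among the 4 gamma genes its share was 35.9 ± 1.75% in control, 31.5 ± 0.958% at the lower dose and 35.5 ± 1.14% at the higher dose (SD, n = 3 each). The lower dose libraries lay below the others in both shares. At the higher dose the share of the whole family was 0.178 percentage points below control (exact two-sided permutation test, n = 3 against 3, p = 0.6, where 0.1 is the smallest p this design allows), and without control 3 or higher dose 3 the difference was above 0 (0.00606 and 0.0629 points). This test uses the control libraries by which TMED7 was chosen, so it is not free of that choice either.

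**Figure D2:**
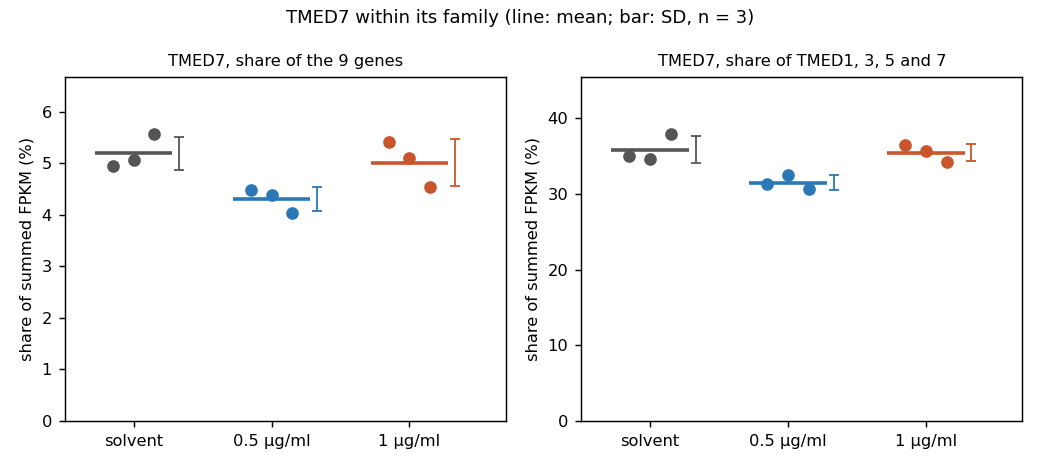
TMED7 as a percentage of the summed FPKM of the 9 TMED genes (left) and of the 4 gamma genes (right), with 1 point per library, a line at the mean and a bar for the SD (n = 3). The lower dose libraries lie between 4.04 and 4.47% on the left and between 30.7 and 32.5% on the right, below all others. These shares rest on the TMED7 values that led to the choice of the family.

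TMED5, another gamma member, with a part in the export of GPI-anchored proteins, stood lower than control in both insulin groups. It lies on chromosome 1 from 93149742 to 93180728 (hg38, minus strand). Its levels were 85.2, 90.4 and 88.1 CPM in control, 72.7, 84.3 and 73.2 CPM at the lower dose and 81.4, 83.4 and 76.3 CPM at the higher dose. No insulin library reached the lowest control, though lower dose 2, at 84.3 CPM, came within 1 CPM of it. The log2 fold change was -0.20 ± 0.06 (SE) at the lower dose and -0.13 ± 0.06 (SE) at the higher dose, with 95% intervals of 0.800- to 0.951-fold and 0.838- to 0.996-fold. The higher dose gave an unadjusted p of 0.0414 and an adjusted p of 1.00 over all genes (edgeR quasi-likelihood), so TMED5 did not pass. Both comparisons use the same 3 control libraries. The doses themselves differed by 0.07 ± 0.06 (SE) on the log2 scale, with an interval of 0.960- to 1.14-fold. The difference was 0.0304 without lower dose 1 and 0.141 without lower dose 2. In GENCODE 7.16% of the exonic bases of TMED5 are also exonic in CCDC18 on the other strand. CCDC18 stood at 9.93, 8.79 and 7.41 CPM in control and 9.95, 8.43 and 9.50 CPM at the lower dose. At the higher dose it stood at 11.7, 8.19 and 9.22 CPM. Its part in the TMED5 values was not tested.

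TMED1, also a gamma gene and described as a partner of the interleukin 33 receptor, had levels of 20.1, 19.0 and 18.1 CPM in control. The lower dose libraries were at 24.03, 19.9 and 23.3 CPM and the higher dose libraries at 22.7, 19.9 and 18.1 CPM. Groups overlapped in all 3 comparisons. Its log2 fold change was 0.23 ± 0.09 (SE) at the lower dose, opposite in sign to TMED5 and TMED7, and 0.09 ± 0.09 (SE) at the higher dose (edgeR quasi-likelihood, adjusted p = 1.00), and the latter turned to -0.0027 without higher dose 1. In GENCODE 51.3% of the exonic bases of TMED1 are also exonic in DNM2 on the other strand, and the strand setting of the counting is not given in the sources used here. DNM2, which encodes a dynamin, stood at 154 ± 7.75 CPM in control, 159 ± 10.4 CPM at the lower dose and 158 ± 7.99 CPM at the higher dose (SD, n = 3 each). Its part in the TMED1 values was not tested.

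TMED3, the remaining gamma gene, varied least among the 9 members in these libraries. It ranged over all 9 libraries from 55.0 to 58.0 CPM, a coefficient of variation of 1.83%, against 2.29% for TMED4, 10.9% for TMED7, 10.8% for TMED1 and 7.79% for TMED5. Counting noise is part of each coefficient and is larger for genes with fewer counts (10135 over all libraries for TMED3, 3697 for TMED1). That part was not separated, so the low value is not shown to be a trait of TMED3. Its log2 fold changes were 0.0028, 0.0043 and 0.0015 for the lower dose, the higher dose and the difference between doses, each with an SE of 0.05. The 95% interval at the higher dose was 0.929- to 1.08-fold. So the members of the gamma subfamily had unlike values, with fold changes at the lower dose on both sides of 0 and close to it.

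**Figure D3:**
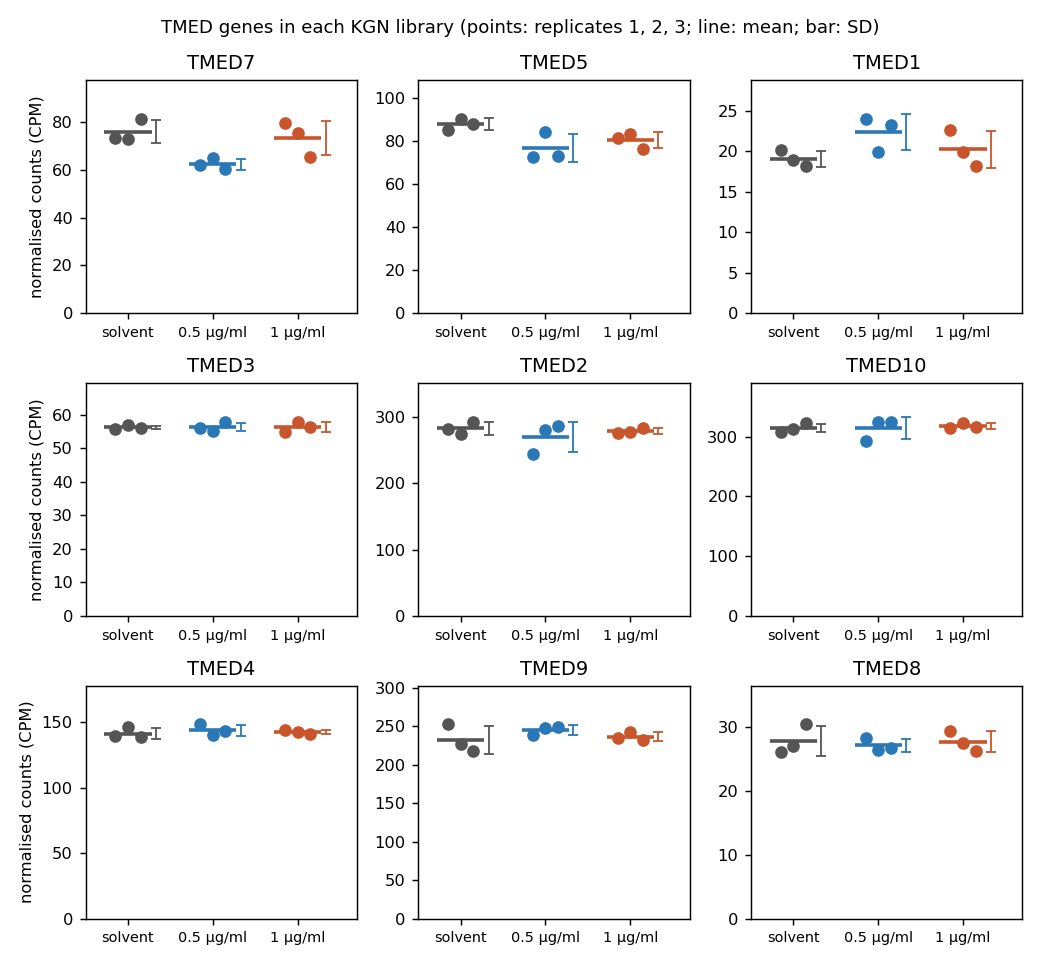
CPM of each TMED gene in the 9 libraries, with points for replicates 1, 2 and 3 from left to right within a group, a line at the mean and a bar for the SD (n = 3). TMED7 at 0.5 µg/ml insulin (60.2 to 64.9 CPM) lies below the other 2 groups, TMED5 lies below solvent at both doses, and TMED3 is level at 55.0 to 58.0 CPM.

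TMED2 and TMED10 are the core of the mixed complexes, and their loss destabilises the other family members in many cells. TMED2 was measured at 282, 274 and 293 CPM in control, 244, 280.2 and 286 CPM at the lower dose and 276, 277 and 284 CPM at the higher dose. TMED10 was measured at 308, 312 and 322 CPM in control, 293, 325 and 325 CPM at the lower dose and 314, 323 and 317 CPM at the higher dose. Lower dose 1 was the lowest library for both genes, and the other 8 libraries lay close together. Against control the log2 fold change of TMED2 was -0.07 ± 0.05 at the lower dose and -0.02 ± 0.05 at the higher dose, and that of TMED10 was 0.0014 ± 0.05 and 0.02 ± 0.05 (SE). At the higher dose the 95% intervals were 0.912- to 1.06-fold for TMED2 and 0.946- to 1.08-fold for TMED10 (edgeR quasi-likelihood, adjusted p = 1.00 for both). Without lower dose 1 the log2 fold change of TMED2 at the lower dose was 0.00047 and that of TMED10 was 0.05.

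The alpha genes TMED9 and TMED4 showed no separation between groups. TMED9 was at 253, 227 and 218 CPM in control, 239, 247 and 249.9 CPM at the lower dose and 236, 243 and 232 CPM at the higher dose, so that the control libraries spanned all the others. Its log2 fold change was 0.08 ± 0.05 at the lower dose and 0.03 ± 0.05 at the higher dose (SE). Without control 1 these were 0.143 and 0.0922, and without control 3 they were 0.0331 and -0.0173. TMED4 ranged from 138 to 148 CPM over the 9 libraries, with log2 fold changes of 0.03 ± 0.05 and 0.01 ± 0.05 (SE). TMED8 ranged from 26.0 to 30.4 CPM, with log2 fold changes of -0.04 ± 0.08 and -0.0071 ± 0.08 (SE).

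**Figure D4:**
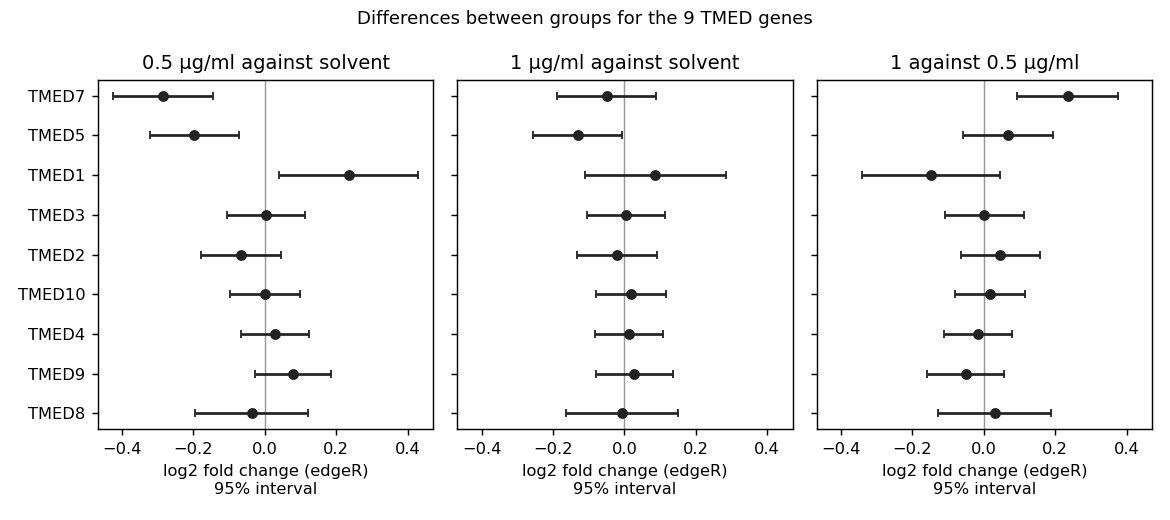
Log2 fold change with its 95% interval (edgeR quasi-likelihood) for the 9 TMED genes at 0.5 µg/ml against solvent, 1 µg/ml against solvent and 1 against 0.5 µg/ml insulin. At the lower dose TMED7 (-0.28) and TMED5 (-0.20) lie left of 0 and TMED1 (0.23) right of it, and at the higher dose only the interval of TMED5 (-0.13) leaves out 0.

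Counted over the family, no member passed the test in any comparison. At the lower dose 0 of 9 members were called, where 0% of all 12665 genes were called. DESeq2, run without the count filter on 15981 genes, called 0 genes there, with 573 at an unadjusted p under 0.05. Its counts for the other comparisons below are over the same 15981 genes. With edgeR quasi-likelihood 776 genes (6.13%) had an unadjusted p under 0.05, among them 3 of the 9 members. TMED7, on the lower side, was 1 of these by the choice of the family. Of the other 8 members, TMED5 was lower and TMED1 higher at an unadjusted p under 0.05 at the lower dose. Groups were free of overlap there for 2 of 9 members, TMED7, which the choice of the family fixed, and TMED5, both lower, against 5.61% of all genes lower, 5.10% higher and 10.7% in either direction. At the higher dose 0 of 9 members were called (0% of all genes; 299 genes, or 2.36%, at an unadjusted p under 0.05, among them 1 member, TMED5; DESeq2 called 0, with 173 at an unadjusted p under 0.05), and groups were free of overlap for 1 member, TMED5, which was lower, against 3.92% of all genes lower, 3.81% higher and 7.73% in either direction. Between the doses 0 of 9 were called (0% of all genes; 720 genes, or 5.68%, at an unadjusted p under 0.05, among them 1 member, TMED7; DESeq2 called 0, with 487 at an unadjusted p under 0.05), and only TMED7 was free of overlap, higher at the higher dose, against 5.85% of all genes higher, 6.31% lower and 12.2% in either direction. The TMED7 results between the doses rest on the lower dose libraries by which it was chosen. The 8 members other than TMED7 had a median log2 fold change of 0.0021 at the lower dose, where all tested genes had 0.0043. At the higher dose their median was 0.0080, where all tested genes had -0.00016. Over these 8 members 3 lay below 0 at the lower dose, where 48.0% of all genes did, and 3 at the higher dose, where 50.1% did. Between the doses 3 of the 8 lay below 0, where 50.5% of all genes did. In bulk RNA, a change in the share of cells that express a gene and a change in its RNA per cell cannot be told apart.

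Across the 9 libraries the members did not vary as a block. Of their 36 pairs 17 had a Pearson correlation of log2 CPM above 0, with a median of -0.01 and a range from -0.81 to 0.84. The points share libraries and scaling, and the same count was not made for pairs of other genes. The highest was that of TMED2 and TMED10 (r = 0.84, Spearman's rho = 0.53, 9 libraries), which was 0.39 without lower dose 1 and so rests largely on that library. It was 0.33 after leaving out the 2 libraries farthest from the TMED2 median. TMED5 and TMED7 came next (r = 0.75, rho = 0.58), with 0.68 without lower dose 1 and 0.43 after leaving out the 2 libraries farthest from the TMED5 median. TMED2 and TMED4 had the lowest value (r = -0.81, rho = -0.78). It was -0.70 without lower dose 1 and -0.54 without the 2 libraries farthest from the TMED2 median.

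Among 9483 other genes with a mean of at least 10 CPM, those most like TMED7 over the 9 libraries were IER3IP1 (r = 0.95), CLIC4 (0.95), CCDC50 (0.94), NEK7 (0.94), CHMP2B (0.92), ITGBL1 (0.92), PPP3R1 (0.91) and BAZ1A (0.91). IER3IP1 encodes a small protein of the endoplasmic reticulum, CLIC4 a chloride channel protein, NEK7 a mitotic kinase and CHMP2B a subunit of the ESCRT-III membrane scission machinery. IER3IP1 was measured at 52.5, 51.8 and 54.8 CPM in control and 49.5, 50.6 and 49.5 CPM at the lower dose. At the higher dose it was measured at 53.8, 54.7 and 50.5 CPM. Its lower dose libraries stood low, with higher dose 3 among them. IER3IP1 was picked by its likeness to TMED7 over these same libraries, so a shared pattern follows from the choice. The genes least like TMED7 were RAB11FIP3 (r = -0.93), EDF1 (-0.92), CYFIP2 (-0.92) and CDC42BPB (-0.91). Over all these genes the middle 90% of correlations lay between -0.61 and 0.64, which shows how widely such values scatter over 9 libraries.

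The genes next to TMED7 on chromosome 5 were looked at for the same pattern. TICAM2, which encodes a TLR4 adaptor, lies 11.03 kb from TMED7 and had 28, 23 and 11 counts in control, 14, 6 and 16 at the lower dose and 26, 15 and 12 at the higher dose. At these counts its log2 fold change of -0.78 ± 0.43 (SE) at the lower dose had a 95% interval of 0.313- to 1.09-fold, and it was -0.463 without control 1 and -1.10 without control 3. ATG12, an autophagy conjugation gene 195 kb away, was at 39.2, 38.9 and 39.5 CPM in control, 33.6, 38.0 and 34.1 CPM at the lower dose and 39.5, 38.2 and 39.1 CPM at the higher dose, with all 3 lower dose libraries below the rest. FEM1C, a substrate receptor of a ubiquitin ligase, stood at 48.9 ± 1.51 CPM in control, 47.9 ± 1.32 at the lower dose and 51.4 ± 0.352 at the higher dose, and CDO1, cysteine dioxygenase, at 2.89 ± 0.349, 2.85 ± 0.131 and 3.23 ± 0.175 CPM (SD, n = 3 each). AP3S1 stood at 88.2 ± 1.23, 84.6 ± 3.68 and 89.5 ± 2.34 CPM in control, lower dose and higher dose (SD, n = 3 each). All 5 tested neighbours lay below 0 at the lower dose (median log2 fold change -0.06), where 48.0% of all genes did. At the higher dose 2 of 5 did, where 50.1% of all genes did. Between the doses 0 of 5 did, where 50.5% of all genes did. The lower dose libraries enter both the first and the last of these counts. None of the 5 was called in any comparison, and no list was tested as a set.

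Other genes of the early secretory pathway were not called either. They were taken from 7 lists (COPI, COPII, other cargo receptors, GPI attachment, GPI-anchored proteins, tethers with SNAREs, and regulators). With 2 p24 genes outside the 9 members these lists hold 151 symbols. Of the 151, 143 had a row in the count table and 130 were tested with edgeR. Of the 130, 0 rose and 0 fell in any comparison. At an unadjusted p under 0.05 the lower dose had 3 higher and 6 lower of 130, where 2.87% and 3.25% of all genes were, and the higher dose had 0 higher and 1 lower, where 1.07% and 1.29% were. Between the doses 3 were higher and 2 lower, where 2.48% and 3.21% of all genes were. Groups were free of overlap for 9 higher and 10 lower of the 130 at the lower dose, where 5.10% and 5.61% of all genes were, for 5 higher and 3 lower at the higher dose, where 3.81% and 3.92% were, and for 7 higher and 12 lower between the doses, where 5.85% and 6.31% were. The genes named from each list are those of smallest p in a comparison, so freedom from overlap in them is a description. Leaving out 1 library moved 28 of the 48 values tracked for these genes and the TMED7 neighbours by over 1.5 times and turned the sign of 0. All 48 were picked by smallest p in their list and comparison, so a sign that holds follows in large part from that choice. The COPII coat, which carries cargo out of the endoplasmic reticulum, had 16 of 17 genes below 0 at the lower dose (median log2 fold change -0.04). At the higher dose it had 13 of 17 below 0 (median -0.03). Of all genes 48.0% were below 0 at the lower dose and 50.1% at the higher dose. Both comparisons use the same control libraries, and no list was tested as a set. SEC31B, an outer coat protein, was at 13.5, 14.8 and 13.4 CPM in control, 12.0, 10.4 and 10.4 CPM at the lower dose and 12.4, 13.5 and 14.3 CPM at the higher dose. Its lower dose libraries lay below all others. SEC24A, which selects cargo, stood at 113 ± 9.95 CPM in control, 101 ± 1.00 at the lower dose and 105 ± 1.09 at the higher dose, with groups that overlapped, and SEC13, an outer coat protein, at 179.8 ± 4.49, 184 ± 3.07 and 189.8 ± 7.05 CPM (SD, n = 3 each). MIA3, which packages collagen at exit sites, stood at 103 ± 5.33 CPM in control, 96.4 ± 2.62 at the lower dose and 105 ± 2.60 at the higher dose.

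The COPI coat and its ARF GTPases, which return p24 proteins to the endoplasmic reticulum, lay evenly about 0. At the lower dose 9 of 17 genes were below 0, with a median of -0.0031, where 48.0% of all genes were. At the higher dose 9 of 17 were below 0, with a median of -0.01, where 50.1% of all genes were. ARF4 stood at 435 ± 11.7 CPM in control, 401 ± 22.1 at the lower dose and 425 ± 9.38 at the higher dose, and ARF1 at 517 ± 12.0, 544 ± 13.2 and 525 ± 14.8 CPM (SD, n = 3 each). For both the lower dose libraries were free of overlap with control, downward for ARF4 and upward for ARF1. The coat subunits COPG2 and COPB2 and the ARF regulator ARFGAP1 had log2 fold changes of 0.05 ± 0.05, 0.02 ± 0.05 and -0.06 ± 0.05 (SE) at the higher dose.

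Of 16 tested other cargo receptors 8 were below 0 at the lower dose and 12 at the higher dose, with medians of -0.01 and -0.03. The shares of all genes below 0 were 48.0% and 50.1%. ERGIC2, which cycles between endoplasmic reticulum and Golgi, was at 40.2, 41.0 and 45.6 CPM in control, 37.3, 38.2 and 37.5 CPM at the lower dose and 42.2, 40.7 and 41.0 CPM at the higher dose. The lower dose libraries were below all others, though without control 3 the log2 fold change against control went from -0.17 to -0.11. LMAN1, the lectin receptor of clotting factors, stood at 397 ± 31.3 CPM in control and 369.9 ± 17.1 at the lower dose, with overlap (SD, n = 3 each). SURF4, a receptor for soluble cargo, stood at 568 ± 12.0 CPM in control and 585 ± 2.75 at the lower dose (SD, n = 3 each), free of overlap, with a log2 fold change of 0.04 ± 0.04 (SE). The cornichon genes CNIH2 and CNIH3 were scarce, at 0.623 ± 0.105 and 4.14 ± 0.720 CPM in control and 0.330 ± 0.185 and 3.33 ± 0.326 CPM at the higher dose.

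Genes for the best known cargo of the family were not called in any comparison. Of 32 tested genes for GPI-anchored proteins 22 were above 0 at the lower dose and 16 at the higher dose, with medians of 0.03 and 0.00007, where 48.0% and 50.1% of all genes were below 0. GPC1, a heparan sulphate proteoglycan, was at 551, 541 and 506 CPM in control, 621, 557 and 556 CPM at the lower dose and 538, 543 and 517 CPM at the higher dose. MELTF, melanotransferrin, stood at 10.1 ± 0.951 CPM in control, 12.1 ± 0.870 at the lower dose and 11.7 ± 1.15 at the higher dose, and LYPD6, a Wnt co-receptor modulator, at 33.7 ± 0.968, 36.5 ± 1.95 and 33.1 ± 1.80 CPM (SD, n = 3 each). The carboxypeptidase M gene, whose symbol is CPM, had 118, 152 and 141 counts in control and 114, 122 and 101 at the higher dose, with a log2 fold change of -0.30 ± 0.13 (SE; edgeR, adjusted p = 1.00). Of the genes that attach and trim the anchor 7 of 11 were above 0 at the lower dose and 4 of 11 at the higher dose. GPAA1, a transamidase subunit, stood at 128 ± 8.19 CPM in control and 137 ± 0.804 at the lower dose, and PGAP2, a remodelling factor, at 15.3 ± 0.604 and 17.1 ± 0.968 CPM (SD, n = 3 each). PGAP1, which prepares the anchor for recognition by p24 proteins, and PIGT, another transamidase subunit, had log2 fold changes of -0.14 ± 0.10 and -0.05 ± 0.05 (SE) at the higher dose. These went to -0.0211 for PGAP1 without control 3 and to -0.0024 for PIGT without control 2.

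Of the tethers and SNAREs that dock these vesicles 18 of 27 were below 0 at the lower dose (median -0.04), where 48.0% of all genes were. At the higher dose 15 of 27 were below 0 (median -0.01), where 50.1% of all genes were. TMF1, a Golgi tether, stood at 72.2 ± 4.91 CPM in control, 66.4 ± 2.41 at the lower dose and 66.5 ± 2.02 at the higher dose, and SCFD1, a SNARE regulator, at 69.1 ± 3.25, 64.5 ± 2.20 and 67.7 ± 2.83 CPM (SD, n = 3 each). The Golgi SNARE GOSR1 was at 20.3, 20 and 19.3 CPM in control and 22.2, 21.9 and 22.6 CPM at the higher dose, free of overlap, with a log2 fold change of 0.16 ± 0.08 (SE; edgeR, adjusted p = 1.00). Between the doses USO1, a tether, and STX5, a SNARE, differed by 0.10 ± 0.06 and -0.10 ± 0.06 on the log2 scale (SE; edgeR, adjusted p = 0.846 for both). Of 10 tested regulators of secretory capacity 7 were below 0 at the lower dose and 6 at the higher dose, beside the same shares of all genes. XBP1, which drives secretory genes in the unfolded protein response, stood at 184 ± 7.44 CPM in control, 182 ± 8.53 at the lower dose and 175 ± 2.41 at the higher dose (SD, n = 3 each). ERN1, the kinase that activates XBP1, and the transcription factor CREB3L4 had log2 fold changes of -0.09 ± 0.09 and -0.19 ± 0.17 (SE) at the lower dose (-0.0103 for ERN1 without control 3, -0.0905 for CREB3L4 without lower dose 3), and CREB3L1 differed by -0.10 ± 0.05 (SE) between the doses.

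**Figure D5:**
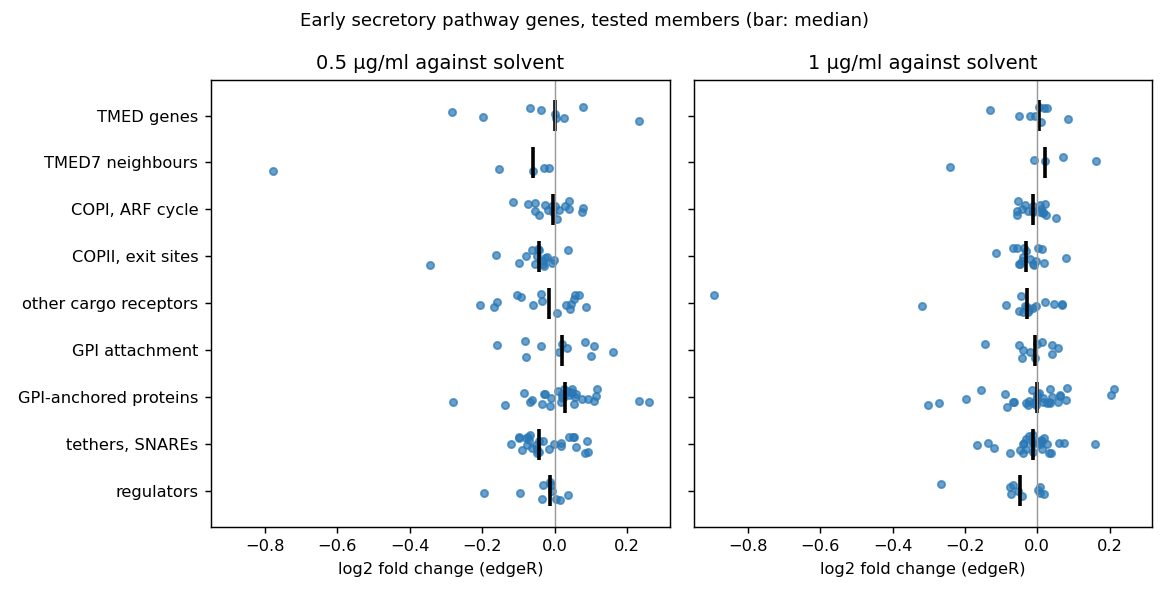
Log2 fold change (edgeR) of every tested gene in the TMED family, the TMED7 neighbours and 7 lists of the early secretory pathway, at 0.5 and at 1 µg/ml insulin against solvent, with a bar at each median and points spread vertically at random. Medians lie between -0.06 and 0.03 in both panels, and the points far to the left are TICAM2 (-0.78) at the lower dose and CNIH2 (-0.89) at the higher dose, both genes with few counts.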

How the data were processed

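RNA sequencing of 9 libraries was deposited as 2 tables with 1 column per library. The authors deposited unnormalized read counts, listed by gene symbol, and FPKM values. Per the submitters' processing notes, Trimmomatic, HTSeq and DESeq were used (no versions) on hg38. Not given in the sources used here: aligner, annotation and strand setting. The deposited FPKM are rescaled counts: where every library held 50 counts or more, the implied gene length was whole within a relative 1e-6 for 11053 of 11053 genes. They were used for levels between genes and for shares within the TMED family, which were also compared between groups.

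Genes were filtered with filterByExpr (edgeR 4.0.16; minimum count 10, minimum total 15), leaving 12665 of 15983. A single quasi-likelihood model with TMM scaling covered all 9 libraries, p-values were two-sided, and the Benjamini-Hochberg adjustment ran over every tested gene at a threshold of 0.05. An SE is the log2 fold change over the square root of F. Log2 CPM for correlations used a prior count of 2. Library totals were 18965722 to 20446405 counts, and replicates of a group differed beyond sampling noise (chi-square per degree of freedom 2.17 to 8.19). Lower dose 1 gave 7.75 against lower dose 2 and 8.19 against lower dose 3, and lower dose 2 against lower dose 3 gave 2.17. The largest value within control was 6.50 (control 1 against control 3) and within the higher dose 5.14 (1 against 3). The models were checked on simulated data.

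The members and gene lists were chosen with earlier results of these data known. Named genes are the members, the 2 genes of smallest p per list and comparison, and the 8 most and 4 least correlated with TMED7. DNM2 and CCDC18 were added after their overlaps were seen. Positions and exon overlaps are from GENCODE release 29. Alternatives were RLE factors, DESeq2 1.42.0 without the filter, no filter, 1 CPM in 3 libraries, a fit of only the 2 groups compared, a replicate block, and leaving out each library.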

Additional observations from a re-analysis of the deposited data

How the results depend on the processing

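None of the 324 values of the 9 members under an alternative passed the adjusted threshold, and 297 kept the sign found in the full analysis. The 27 others all belong to differences near 0, and 26 of them come from leaving out a library. Each member has 1 log2 fold change per comparison, 27 in all. When 1 library was left out, 21 of these 27 log2 fold changes moved by over 1.5 times and 16 turned their sign. Without a count filter, TMED10 at the lower dose stood at -0.00037. Leaving out 1 library at a time, the lower dose log2 fold change ranged from -0.0239 to 0.0498 for TMED10, from -0.11 to 0.00047 for TMED2, from -0.0154 to 0.0173 for TMED3 and from -0.0803 to 0.0323 for TMED8. At the higher dose the ranges were -0.0027 to 0.16 for TMED1, -0.0433 to 0.0057 for TMED2, -0.0152 to 0.0225 for TMED3, -0.0028 to 0.0380 for TMED4, -0.11 to 0.0267 for TMED7, -0.0527 to 0.0629 for TMED8 and -0.0173 to 0.0922 for TMED9. Between the doses they were -0.0315 to 0.0419 for TMED10, -0.0212 to 0.0892 for TMED2, -0.0181 to 0.0196 for TMED3, -0.0346 to 0.0065 for TMED4 and -0.0159 to 0.0681 for TMED8.

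Leaving out a library in turn, TMED9 at the lower dose ranged from 0.0331 to 0.143, TMED7 from -0.31 to -0.23 and TMED5 from -0.27 to -0.16 (log2). The difference in the TMED7 share of family FPKM between higher dose and control ranged from -0.379 to 0.0629 percentage points. The count of called genes was 0 to 1 at the lower dose (1 without control 2, LOC102724200), 0 at the higher dose and 0 to 2 between the doses (2 without lower dose 1, NDRG1 and TRIM22); none is a TMED gene.

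The labels do not say that a replicate number marks a shared culture or day, and the numbers were not taken as pairs: same-numbered libraries of different groups had correlated deviations above 0.1 in 1 of 9 pairs (range -0.0117 to 0.161), although 7 of 9 libraries correlated best with one of their own number, a hint from the data and not from the design. With the replicate block 2 genes were called at the lower dose, BOLA2B and LOC107987373, and 0 in the other comparisons, and TMED7 at the lower dose was -0.29 with the block. Every member had at least 368 counts in every library.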
